A study of Mus musculus with 2 samples.

Results

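The Mir379 to Mir410 cluster is a row of miRNA hairpins on the distal part of mouse chromosome 12, in the imprinted domain between Dlk1 and Dio3. Its members were taken by position, as every counted miRNA gene whose identifier lies in GENCODE M21 on GRCm38 on chromosome 12 between 109700000 and 109760000, on either strand. This gave 38 of 1973 counted genes, 34 on the plus strand and 4 on the minus strand. MicroRNA sequencing was done on the intestine of 2 newborn pups, called pup 1 and pup 2, with 1 library each. Per the labels the pups were of strain B6NCrl, were taken at postnatal day 0, came from the same pregnant female and carried no stated allele or treatment. Sex was not collected, the intestinal segment was not named and the RNA size range was below 30. There was 1 group, so the values are levels in newborn intestine, and the only contrast is between the littermates' libraries.

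Hairpins of this cluster are cut from long non-coding RNA that is made from the maternally inherited chromosome. Each hairpin is trimmed by Drosha and then Dicer to a short duplex, and 1 arm of it (the 5p or the 3p strand) is loaded into an Argonaute protein, where bases 2 to 8, the seed, pair with target mRNAs. The cluster is found in placental mammals. It is best known from brain, embryonic and placental tissue, and mice that lack it adapt poorly to the change of metabolism at birth.

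The sequences below, from RefSeq on GRCm38.p6, are shown because the results turn on them, and capitals mark the seed. Sequences were found for 32 of the 38 genes, all but Mir666, Mir544, Gm27379, Gm25750, Gm25252 and Gm24321, and for the 4 hairpins that the minus-strand genes face. The counts were given per hairpin gene, so reads of the 5p and the 3p arm were not separated. The highest hairpin, Mir411, its upstream neighbour Mir379 and the lower Mir1193 are set together, because Mir379 shares the seed AUGUAAC with Mir411 in the 3p arm and the seed GGUAGAC with Mir1193 in the 5p arm.
miR-379-5p: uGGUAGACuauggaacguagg
miR-1193-5p: uGGUAGACcggugacguaca
miR-411-5p: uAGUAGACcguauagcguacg
miR-379-3p: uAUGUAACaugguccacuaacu
miR-411-3p: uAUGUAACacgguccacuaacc

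Further sequences show seeds of the cluster that begin with GGU, all from 5p arms but miR-453, which is named without an arm and lies in the downstream part of its hairpin. Mir494 and Mir410 share the seed GGUUGUC, Mir758 and Mir1197 share GGUUGAC, and Mir453 and Mir496a share GGUUGCC.
miR-494-5p: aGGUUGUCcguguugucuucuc
miR-410-5p: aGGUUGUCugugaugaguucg
miR-758-5p: uGGUUGACcagagagcacacg
miR-1197-5p: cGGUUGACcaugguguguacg
miR-453: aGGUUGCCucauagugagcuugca
miR-496a-5p: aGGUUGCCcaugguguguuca

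The next sequences belong to hairpins whose reads were found on the strand opposite to a counted minus-strand gene. Mir299a and the minus-strand Mir299b are shown with both arms because they are nearly the same sequence.
miR-299a-5p: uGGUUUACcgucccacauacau
miR-299b-5p: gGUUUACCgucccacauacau
miR-299a-3p: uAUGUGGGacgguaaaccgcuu
miR-299b-3p: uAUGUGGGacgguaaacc
miR-380-3p: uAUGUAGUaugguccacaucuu
miR-376a-3p: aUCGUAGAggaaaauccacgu
miR-409-3p: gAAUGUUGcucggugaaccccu

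The cluster, 38 of the 1973 counted genes, was detected in newborn gut. Its genes held 79389 counts in pup 1 and 84982 in pup 2, of 3567658 and 4683939 counts on the annotated strand of all miRNA genes. This was 2.23% of counts in pup 1 (95% exact Clopper-Pearson interval 2.21 to 2.24) and 1.81% in pup 2 (1.80 to 1.83), a mean of 2.02% ± 0.291 (SD, n = 2). Each ± that follows is likewise an SD of the pair of pups. Intervals here reflect the counting of reads alone, and reads are not independent molecules, because the labels name no molecular identifiers. The libraries held 6375694 and 8373497 reads in all. Of the 34 plus-strand genes, 29 reached 10 counts in each library. Their median level was 156 CPM (counts per 1000000 counts in miRNA genes), beside 145 CPM over all 314 genes that reached 10 counts. A read is a whole mature miRNA whatever the length of its hairpin, so CPM was not divided by length.

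The tissue label was checked against lists of marker miRNAs. All 11 gut epithelial markers, Mir192, Mir215 and Mir200b among them, reached 10 counts in both pups and together held 30.9% of counts in pup 1 and 35.6% in pup 2. Both smooth muscle markers, Mir143 and Mir145a, did so too, with 18.1% and 15.0%. The nerve list held 0.136% in each pup, with 7 of its 12 counted markers reaching 10 counts, and the list of placental and pluripotent cells held 0.00163% and 0.00117%. Of the nerve list, 4 markers were at 0, the 3 Mir124a genes and Mir9-2; these genes have copies, and the 30.3% and 29.8% of all reads that mapped to more than 1 place were left out of every gene's count.

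Levels within the cluster spanned 674-fold among the 29 genes, and a few hairpins held most of the reads. Mir411 was highest, at 7453 CPM in pup 1 and 5229 in pup 2, 31.2% of the cluster's counts on average. Mir379, the hairpin that opens the cluster, stood at 3336 and 2548 CPM. Mir411 and Mir379 together held 48.5% of the cluster's counts in pup 1 and 42.9% in pup 2. The highest 5 genes held 73.4% ± 1.60 and the highest 10 held 91.3% ± 0.730.

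On GRCm38, Mir379 lies at chr12:109709060-109709125 and Mir411 at chr12:109710175-109710256, both on the plus strand and outside any annotated long gene of that strand. Mir487b, the third in level, lies at chr12:109727333-109727414 and had 2415 CPM in pup 1 and 2261 in pup 2. Mir369 followed with 1855 and 1390 CPM, and Mir541 with 1533 and 1690. Mir369 was thus above Mir541 in pup 1 and below it in pup 2, and their means, 1623 ± 328 and 1611 ± 111 CPM, lay closer than the spread. From Mir411 down to Mir369 each step in the order was the same in both pups and larger than the SD.

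Below these stood Mir381 (949 ± 33.3 CPM) and Mir382 (921 ± 108), whose order differed between the pups, and then Mir154 (747 ± 104). Mir134, which is known to restrain the kinase Limk1 in dendritic spines of neurons, had 535 CPM in pup 1 and 455 in pup 2. It was not separated from Mir1193, at 506 and 446 CPM, beyond the spread. Mir300 (316 ± 17.7 CPM) and Mir376c (197 CPM in pup 1 and 168 in pup 2) completed the 12 highest genes counted on their own strand. In all, 5 genes were above 1000 CPM, 13 lay between 100 and 1000 and 11 of the 29 lay below 100. Of 28 neighbouring steps in this order of levels, 21 had the same order in both pups and 15 were also larger than the SD.

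The lowest of the 29 genes were Mir758 (8.13 CPM in pup 1 and 10.7 in pup 2), Mir3072 (16.3 and 16.2) and Mir412 (75 and 118 counts, a mean of 23.1 CPM). Mir1197 had 2 and 5 counts and Mir544 had 5 and 6. Mir654, Mir453 and Gm27379 had 0 counts in both libraries, which allows up to 3 counts, or 0.841 CPM in pup 1 and 0.640 in pup 2. The rank order of the 29 genes was nearly the same in both pups, with a Spearman rho of 0.993 and a Pearson r of 0.997 on log2 CPM. These are correlations across genes that share their libraries and their transcript, and describe the libraries only.

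**Figure D1:**
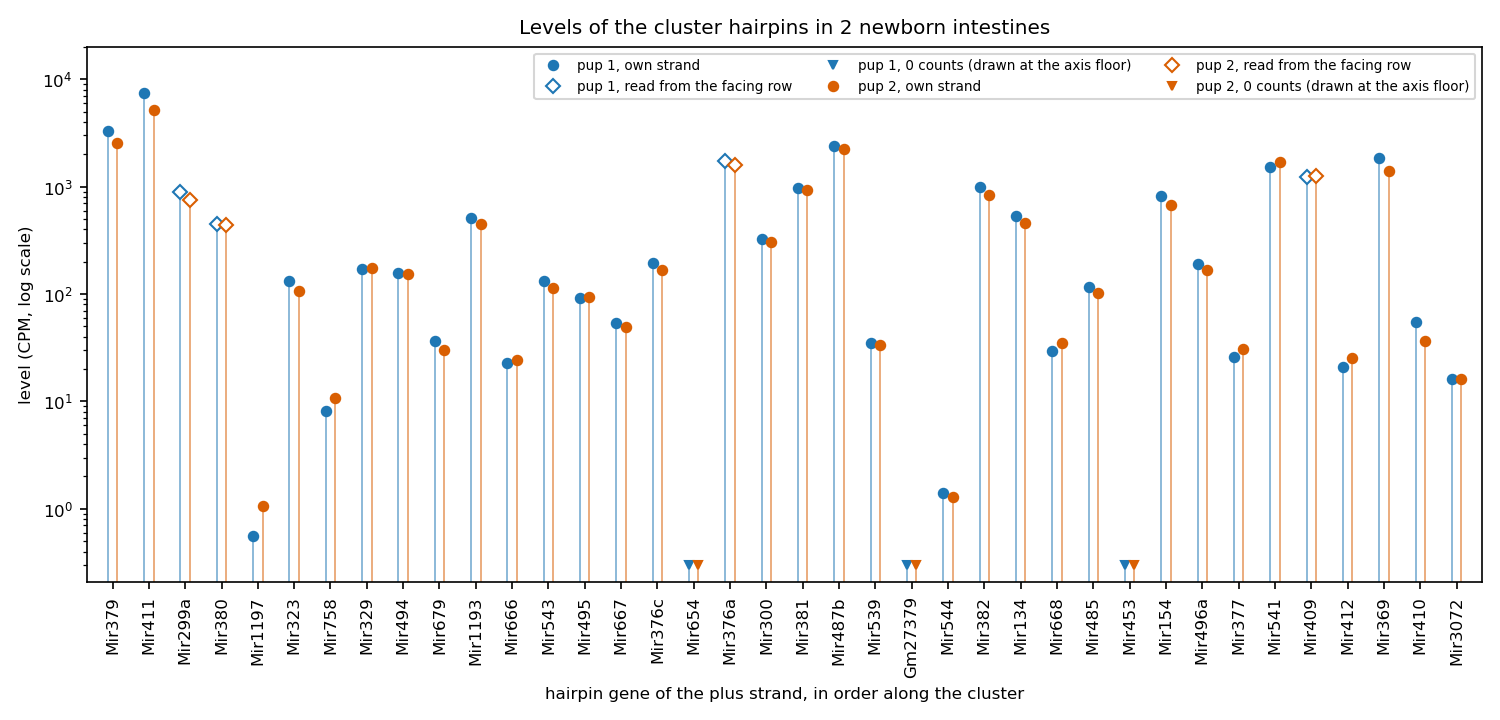
Level in CPM (log scale) of the 38 plus-strand hairpins of the cluster that were counted directly or through a facing gene, in pup 1 (blue) and pup 2 (orange). They are in order along chromosome 12. Circles are counts on the gene's own strand, open diamonds are hairpins read from a facing minus-strand gene, and triangles mark 0 counts. The points of both pups lie close together for each hairpin, while neighbouring hairpins such as Mir412 (23.1 CPM) and Mir369 (1623 CPM) lie far apart.

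The 4 minus-strand genes held almost no reads of their own strand, and their opposite-strand reads placed further hairpins of the cluster among its most abundant. Each of these genes overlaps a plus-strand hairpin, which was read here through its facing gene alone. Gm25252 faces Mir376a (chr12:109723781-109723848), and had 0 own-strand reads and 6237 and 7487 reads on the plus strand, or 1748 and 1598 CPM. Gm24321 faces Mir409 (chr12:109743158-109743236), with 0 own-strand reads and 4411 and 5842 on the plus strand, or 1236 and 1247 CPM. Gm25750 faces Mir380 (chr12:109711803-109711863), with 0 own-strand reads and 1586 and 2060 on the plus strand, or 445 and 440 CPM.

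Mir299b faces Mir299a (chr12:109710638-109710700) and had 2 and 3 reads of its own against 3171 and 3489 on the plus strand, or 889 and 745 CPM. The 2 hairpins are reverse complements of each other over their common stretch, and the Mir299a hairpin shares a run of 21 bases with its own reverse complement. A read that lies wholly in that run fits both strands of the locus equally. Such reads would count as mapping to several places, so the counts of Mir299a and Mir299b are lower limits.

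Ranked with the other plus-strand hairpins, Mir376a took place 5, Mir409 place 7, Mir299a place 10 and Mir380 place 14 in each pup. By mean level Mir376a, at 1673 ± 106 CPM, was not separated from Mir369 or Mir541. The primary transcripts of the miR-376 family are known to be edited by ADAR enzymes in some tissues; edited reads were not analysed here. Together the 4 facing hairpins had 15405 reads in pup 1 and 18878 in pup 2, 12.2% and 11.7% of all opposite-strand reads of the 1973 genes. With these reads added to the cluster and to the total, the cluster's share was 2.65% in place of 2.23% in pup 1 and 2.21% in place of 1.81% in pup 2.

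The 34 plus-strand genes themselves had 0 opposite-strand reads of 79387 in pup 1 and 0 of 84979 in pup 2, which allows a share of up to 0.00465% and 0.00434% by the exact upper bound. Over all 38 genes, the facing ones included, the opposite-strand share was 16.3% in pup 1 and 18.2% in pup 2. Among all genes outside the cluster, which were not split by strand, it was 3.04% ± 0.0564. A near absence of opposite-strand reads was not particular to the cluster. Elsewhere in the imprinted domain Mir127, Mir431 and Mir434 had 0, while Mir337 had 1 in pup 1 and Mir3071 had 1 in pup 2. Within the cluster every counted read thus came from the plus strand, apart from the 2 and 3 reads of Mir299b.

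**Figure D2:**
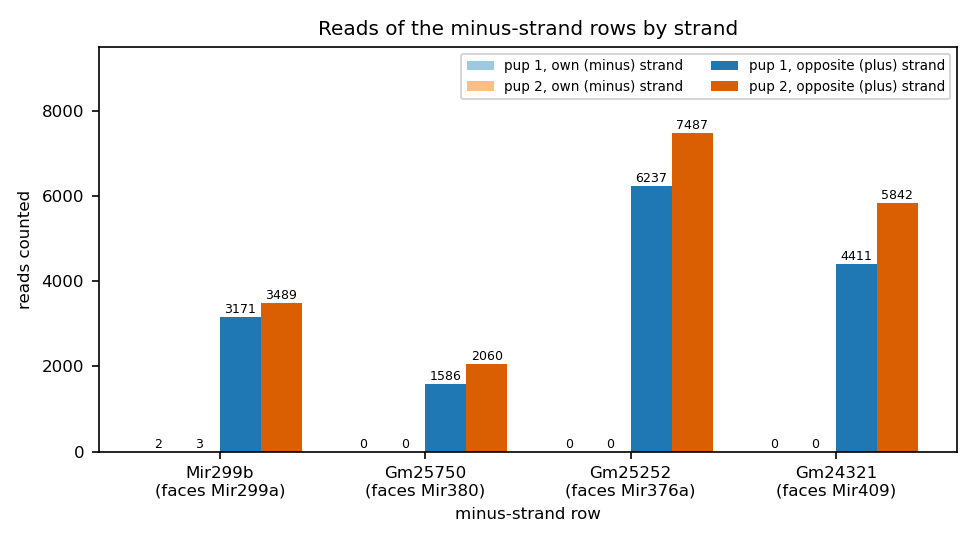
Reads counted for the 4 minus-strand genes of the cluster, by strand and pup, with the hairpin each gene faces in brackets. Own-strand bars are at 0, 2 or 3 reads, while the opposite strand holds 1586 to 7487 reads.

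Hairpins that lie side by side did not have like levels. Counting the facing hairpins, 35 plus-strand hairpins had a read in both pups. Neighbours are consecutive hairpins among these 35, so uncounted Mir376b, which lies between Mir376c and Mir376a, is passed over. Over the 34 neighbouring pairs the median difference was 6.57-fold, beside 7.65-fold over all 595 pairs, and 22 of the 34 were over 4-fold apart in both pups. At the downstream end Mir412 lies 52 bases after Mir409 and 49 bases before Mir369. Mir409 was 58.8-fold above Mir412 in pup 1 and 49.5-fold above it in pup 2, and Mir369 was 88.2-fold and 55.2-fold above it. Mir410, the hairpin that names the end of the cluster, lies 218 bases beyond Mir369, which exceeded it 33.6-fold and 37.9-fold. Upstream, Mir1197 lies 71 bases before Mir323, which had 475 counts against 2 in pup 1 and 495 against 5 in pup 2. Ratios between hairpins include any difference in how well the library chemistry captures each sequence, which both pups share.

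Distance from Mir379 had little relation to level. Across the 29 genes Spearman's rho of mean CPM with distance was -0.14, and over the 32 hairpins with a sequence and 10 counts, facing ones included, it was -0.18. In the same 32, rho of level with hairpin length was -0.05, with GC content -0.29 and with predicted folding energy per base 0.22. These relations were weak, and the points share a transcript and both libraries. By annotation 25 members lie outside long genes of their strand, and 13 lie within Mirg, the long non-coding gene that covers the downstream part. Of these 13, 9 overlap an exon of some Mirg transcript, among them Mir382, Mir134, Mir485, Mir369 and Mir410, and 4 are intronic, Mir453, Mir154, Mir496a and Mir541. Genes within Mirg held 27.9% of the cluster's counts in pup 1 and 30.1% in pup 2.

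The mature sequences of the cluster resembled each other more often than they shared a full seed. After the sequences had been read, the motif GGU at bases 2 to 4 was counted. It began the seed in 14 of 33 5p arms (42.4%), against 11 of 693 5p arms of other mouse miRNAs in the RefSeq table (1.59%), of which Mir341 and Mir1188 lie in the same imprinted domain. It began 0 of 31 arms named 3p in the cluster and 10 of 699 others. MiR-453 also begins its seed with GGU but carries no arm in its name, so neither count holds it, and both arms of Mir299b were left out because that gene lies opposite Mir299a. In 3p arms ACGGU or AUGGU, searched anywhere on the given strand, occurred in 9 of 31 (29.0%) against 13 of 699 (1.86%). Hairpins with the GGU start were found at high and low levels, from Mir379 (2942 ± 557 CPM), Mir487b (2338 ± 109) and Mir409 (1242 ± 7.68) to Mir758 (9.40 ± 1.80), Mir1197 (0.814 ± 0.358) and Mir654 with 0 counts.

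In 10 pairs of mature sequences of the same arm at least 75% of positions were identical when aligned at the 5′ end. The 3p arms of Mir379 and Mir411 were the closest, 20 of 22 positions, with the same seed, and Mir411 was 2.23-fold above Mir379 in pup 1 and 2.05-fold in pup 2. Mir300 and Mir381 are shown next because 19 of 22 positions agree while 1 seed base differs. Mir543 with Mir495 had 18 of 22 and 2 seed bases apart, and Mir154 with Mir369 had 17 of 21 and 1 seed base apart.
miR-300-3p: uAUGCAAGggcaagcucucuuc
miR-381-3p: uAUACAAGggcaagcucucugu
miR-543-3p: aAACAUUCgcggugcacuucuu
miR-495-3p: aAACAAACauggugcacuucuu
miR-154-3p: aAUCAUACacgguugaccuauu
miR-369-3p: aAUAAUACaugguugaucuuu

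Some of these pairs had levels within a few fold of each other. Mir381 exceeded Mir300 2.96-fold in pup 1 and 3.05-fold in pup 2, Mir543 exceeded Mir495 1.45-fold and 1.22-fold, and Mir369 exceeded Mir154 2.26-fold and 2.06-fold. Others did not: Mir411 exceeded Mir758 917-fold and 490-fold, although 15 of 19 positions of their 3p arms were identical. Mir411 and Mir758 also share a run of 21 bases that reaches into both 3p arms. Mir376c shares a run of 31 bases with Mir376b, and the run covers 18 bases of miR-376c-5p. Mir376b lies within the region too, from chr12:109723458, but is not among the 38 counted genes. Reads that fit several genes were left uncounted, so the level of Mir376c is a lower limit. The other hairpins shared at most 16 bases with any hairpin at another place, apart from Mir487b, whose run of 20 with Mir376b lies at its 3′ end. That run does not touch miR-487b-5p. No 3p arm of Mir487b was in the sequences used, so an overlap with that arm was not assessed.

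By seed, the group of Mir379 and Mir411 (3p AUGUAAC) summed to 10788 CPM in pup 1 and 7777 in pup 2, and Mir379 with Mir1193 (5p GGUAGAC) to 3842 and 2994. Mir494 with Mir410 (5p GGUUGUC) came to 213 and 191 CPM. Mir496a with Mir453 (GGUUGCC) came to 192 and 168 CPM, all of it Mir496a, and Mir758 with Mir1197 (GGUUGAC) to 8.69 and 11.7. Reads of both arms are in each sum, so a sum is an upper limit for the arm with that seed among the reads counted. Some mature sequences of the cluster share a seed with a miRNA that is not among its counted genes. Examples are miR-411-5p with miR-7229-5p, miR-1193-3p with miR-370-5p and miR-329-3p with miR-362-3p. Mir329 had 172 CPM in pup 1 and 174 in pup 2.

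**Figure D3:**
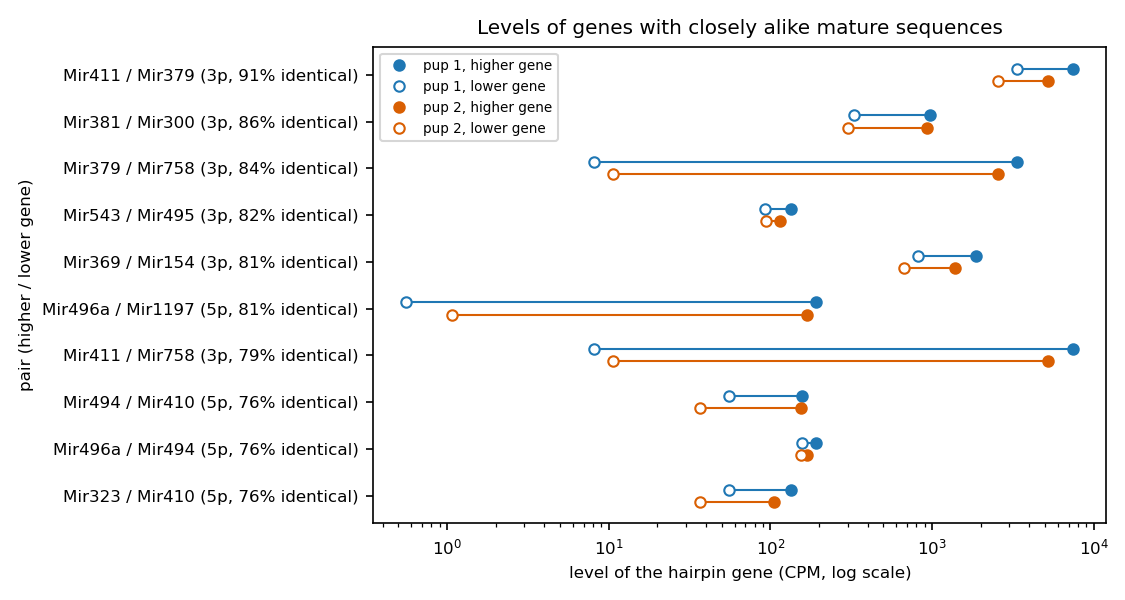
Levels in CPM (log scale) of the genes in the 10 pairs whose mature sequences were at least 75% identical, with the higher gene as a filled and the lower as an open circle, in pup 1 (blue) and pup 2 (orange). Most pairs lie within a few fold, while Mir758 and Mir1197 lie far below the genes they resemble.

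Between the littermates, several abundant members were lower in pup 2. Each gene's pair of counts was set against the ratio of the TMM-scaled library sizes (edgeR) by an exact binomial test, 2-sided, with Benjamini-Hochberg adjustment over all 314 genes that reached 10 counts. With 1 library per pup this compares the libraries and has no replicate of either animal. Of the 29 members, 11 were called lower and 1 higher in pup 2, and 17 were not called. Over all 314 genes 41.1% were called, 19.7% lower and 21.3% higher. The median log2 ratio of the members, pup 2 over pup 1, was -0.08, beside 0.00 for all 314 genes, and 19 of 29 were below 0. In bulk tissue fewer cells of a type and less RNA per cell cannot be told apart.

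Mir411 had 26588 counts in pup 1 and 24492 in pup 2, a log2 ratio of -0.47 (95% interval -0.49 to -0.44, exact binomial adjusted p = 1.39e-292). Mir369 had 6617 and 6513 counts and a log2 ratio of -0.37 (-0.42 to -0.32), and Mir379 had 11900 and 11933 and a ratio of -0.35 (-0.38 to -0.31). These were the 3 members furthest down among those of at least 100 CPM, and all 3 passed. Mir410 passed with the lowest ratio of all members, -0.55 (-0.85 to -0.24), on 197 and 172 counts; it was named after its values were seen.

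Mir541 was the 1 member called higher in pup 2, with 5468 and 7916 counts and a log2 ratio of 0.18 (0.13 to 0.23, exact binomial adjusted p = 2.22e-12). Next among genes of at least 100 CPM were Mir329 with a ratio of 0.06 and Mir494 with 0.01, neither of which passed. Mir323 (-0.29), Mir154 (-0.24), Mir382 (-0.20) and Mir134 (-0.19) were called lower. Mir1193 (-0.14), Mir376c (-0.18) and Mir487b (-0.05) were called lower too, but not with upper-quartile scaling. None of the 12 called members was over 1.5-fold apart. Of the facing hairpins, tested with counts that ignore strand (324 genes, 42% called, 20.1% lower and 21.9% higher), Mir299a (-0.21, exact binomial adjusted p = 1.13e-08) and Mir376a (-0.09) were called lower, the latter not with upper-quartile scaling. Mir380 (0.03) and Mir409 (0.06) were not called, though Mir409 was called higher with upper-quartile scaling and Mir380 fell below 0 with total counts.

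Neighbours along the cluster had ratios of unlike size and sign. Mir541 (0.18) and Mir369 (-0.37) lie on either side of Mir409 (0.06) and of Mir412 (0.30, interval -0.13 to 0.74, not called). Mir411 (-0.47) lies between Mir379 (-0.35) and Mir299a (-0.21), followed by Mir380 (0.03). The 95% intervals of Mir541 and Mir369 do not overlap, and neither do those of Mir411 and Mir299a; the differences between members were not tested. The ratio was related to level, with a Spearman rho of -0.53 across the 29 genes, and abundant members tended to have the lower ratios. Exceptions were abundant Mir541 (0.18), Mir487b (-0.05) and Mir381 (-0.03), and Mir410, which had the lowest ratio (-0.55) at a mean of 46.0 CPM. The same relation over all genes of the libraries was not computed. The ratio had little relation to distance along the cluster (rho 0.11). Marker levels differed between the libraries too, as the summed share of the 11 epithelial markers above shows. In absolute CPM the largest rise in that list was of Mir215, from 138090 CPM in pup 1 to 170988 in pup 2. Mir429 (35423 and 35179 CPM) and Mir375 (11352 and 11229) were slightly lower in pup 2 by CPM. With TMM scaling the log2 ratios in the list ran from 0.03 for Mir375 to 0.39 for Mir194-1. Endothelial Mir126a held 5.46% of counts in pup 1 and 4.98% in pup 2.

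The shares of 2 other lists rested on a few genes. In the smooth muscle list Mir143 had 176506 CPM in pup 1 and 145700 in pup 2, while Mir145a had 4550 and 4429, a log2 ratio of 0.00 that was not called. The 6 mesenchyme markers held 5.48% and 5.84%, nearly all of it Mir21a (33273 and 36127 CPM) and Mir22 (19369 and 20312), which many other cell types express. Of the list's other genes Mir214 was called lower in pup 2 with a log2 ratio of -0.15, Mir199b was at 0.00, Mir199a-2 at 0.32 without a call, and Mir199a-1 had 10 and 9 counts.

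Some other genes, chosen after their values were seen, set the libraries further apart than any tested member of the cluster. For Mir196b, a miRNA of the Hox gene clusters, the log2 ratio was -4.91 on counts of 7337 and 310. For Mir196a-2 it was -3.31 on 272 and 35, and for liver-typical Mir122 it was -1.18 on 103 and 58. The nerve list held the same share in each pup to 3 digits, but most of its counts were of Mir137. That gene had 3820 of the list's 4863 counts in pup 1 and 4841 of 6347 in pup 2. Within the list Mir138-1 was called higher in pup 2 (log2 ratio 0.45), while Mir129-1 (-0.29) and Mir129-2 (-0.24) lay below 0 without a call. The part of these differences in the lower ratios of the cluster was not tested.

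**Figure D4:**
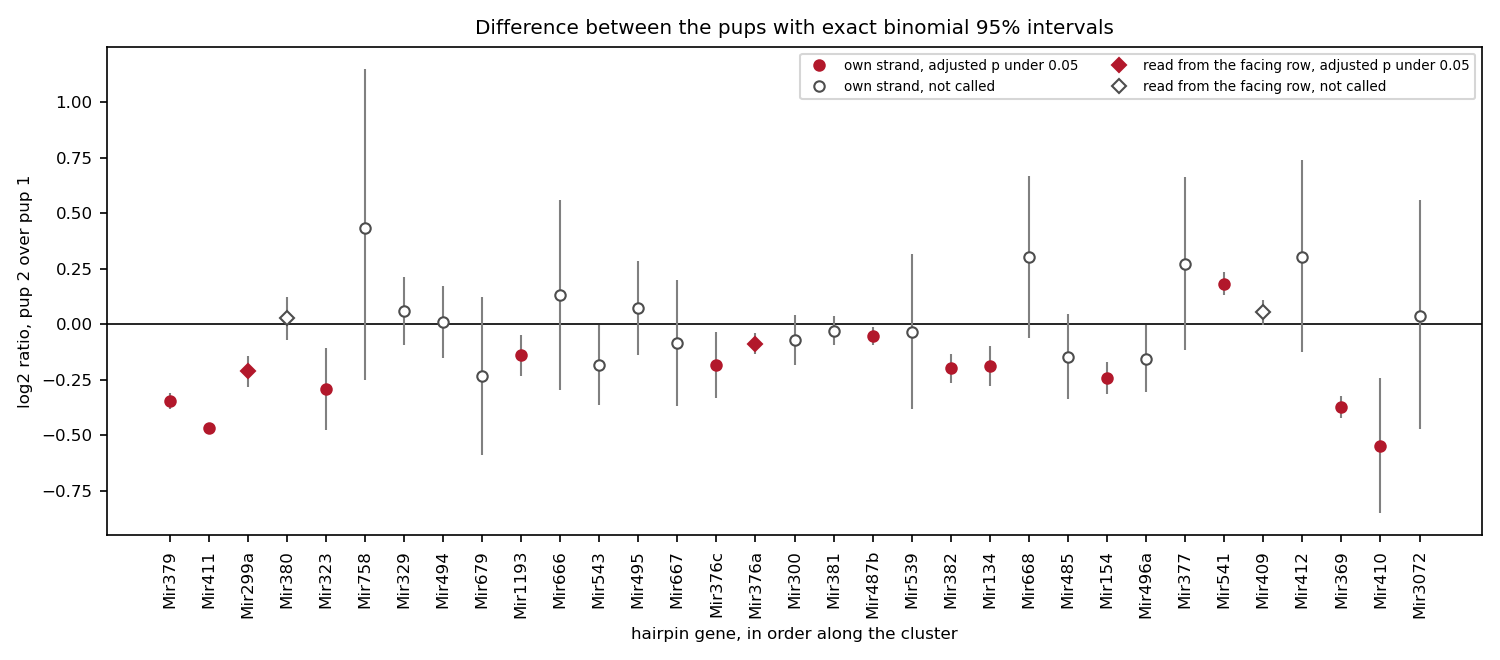
Log2 ratio of pup 2 over pup 1 for the 29 members with at least 10 counts in each library and the 4 facing hairpins, in order along the cluster, with exact binomial 95% intervals. Filled symbols were called at an adjusted p under 0.05, and Mir541 is the filled symbol above 0.

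The rest of the imprinted domain was read from a list of its other miRNA genes. Of 20 such genes in the table, 14 reached 10 counts in each pup. Together they held 0.908% of counts in pup 1 and 0.768% in pup 2, so the cluster held 2.45 and 2.36 times as many counts. Of the 14, 8 were called lower in pup 2 and 0 higher, with a median log2 ratio of -0.20. Over all 314 genes 19.7% were called lower and 21.3% higher, with a median of 0.00. Mir127, which lies antisense to the retrotransposon-like gene Rtl1, led them with 4056 CPM in pup 1 and 3467 in pup 2. That is above every cluster member but Mir411. The log2 ratio of Mir127 was -0.18.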

How the data were processed

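For each miRNA gene the authors deposited raw counts of reads, made on mm10 with GENCODE M4 per the accompanying text. Aligner and counter: not given in the sources used here. The column sums show counts that ignore strand, counts on the gene's own strand and counts on the opposite strand; 0 reads were ambiguous between genes, and reads with several mapping places stayed outside the genes. Of 1973 identifiers, 1894 were matched to GENCODE M21 on GRCm38 for symbol and position. For 25 of the 38 members the version was the same as in M21, so the counted intervals of the others may differ slightly. Own-strand counts were the main measurement.

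TMM factors came from edgeR 4.0.16, DESeq2 1.42.0 gave other size factors, and tests used SciPy 1.17.1; RNAfold 2.7.2 gave folding energies. The binomial test was tried on simulated data that held counting variation alone. The simulation had no variation between animals, so it cannot show how the test behaves when such variation is present. The detection minimum was 10 counts, the threshold an adjusted p of 0.05. Other scalings, count minimums, denominators and strand-blind counts were tried. Genes named were the 12 highest, minus-strand genes with a count, genes sharing a seed, the 3 furthest apart each way of at least 100 CPM, the 3 lowest and those at 0; pairs of like sequence, neighbours in position and motifs were added after the values or sequences were seen. The members and lists were chosen with earlier results of these data known.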

Additional observations from a re-analysis of the deposited data

How the results depend on the processing

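The cluster's share of 2.02% was 2.35% with counts that ignore strand, 2.43% with the facing hairpins added, 1.13% of all reads, 2.45% without the highest gene of the library in the denominator and 1.39% without Mir411; each pup alone gave 1.81% to 2.23%. The members detected numbered 29, and 24 to 33 under every alternative tried. Instead of 12 members called there were 9 with upper quartile and 14 with total counts, which also called Mir543 and Mir496a lower; there the median of all genes moved to 0.04 and -0.04 on the log2 scale. With a fold of 1.5 also required, 0 were called. The members' median log2 ratio of -0.08 was -0.13 with total counts, -0.0428 with upper quartile and -0.14 with at least 100 counts. The rho of level with distance was -0.13 with either pup alone (-0.132 to -0.126) and 0.0136 with all members that had a count in both libraries. Ratios near 0 changed sign: Mir494 was -0.0333, Mir3072 -0.0028 and Mir380 -0.0141 with total counts, and Mir381 was 0.0128 and Mir539 0.0090 with upper quartile. For the same counts, a change of scaling moves the log2 ratio of every gene by the same amount. The other scalings of the facing hairpins were chosen after seeing the data. No paired analysis was possible because the series has 1 group. Without either replicate no ratio between the pups exists. Depth limits the members under 100 CPM, whose intervals for the ratio are the widest.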
